A study of Mus musculus with 24 samples.

Results

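The earliest response of wild-type cortical neurons to depolarization was measured on 4 of the 24 arrays of a series on the activity-regulated transcription factor Npas4. The arrays were chosen by their titles, 2 from silenced CTX WT cultures (0 h) and 2 from CTX WT cultures after 1 h in KCl, and all 12378 genes that passed a filter on low values were described. The series holds 12 groups of 2 arrays, made up of cultures from cortex (CTX) or from the medial ganglionic eminence (MGE), Npas4 wild type (WT) or knockout (KO), at 0, 1 and 6 h of KCl.

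Per the labels, every culture came from littermates on a C57Bl/6 background, was prepared from embryos at embryonic day 14 and was kept for 10 days in vitro, while the series description gives 9 days before silencing. All groups, the 0 h cultures included, were silenced overnight from day 9 with tetrodotoxin, a blocker of voltage-gated sodium channels, and AP-5, a blocker of NMDA receptors. Depolarized cultures then received 55 mM extracellular KCl. The CTX KO and MGE WT cultures at 0 and 1 h were used for comparison, and CTX WT at 6 h for the later levels. The sources used here do not give the part of Npas4 deleted in the KO, whether embryos were pooled, or whether the 2 arrays of a group came from separate cultures or animals. The p-values therefore measure only the spread between arrays of the same group, pooled over the 12 groups, and this spread may be technical.

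Raising extracellular potassium depolarizes the membrane and opens voltage-gated calcium channels, and the calcium signal reaches the nucleus through kinases and phosphatases that act on factors already present, such as CREB, SRF and MEF2. The genes that these factors switch on without new protein synthesis are called immediate early genes, and many of them encode transcription factors for a later wave of genes. Overnight silencing is used to lower the activity-driven background. All groups here were silenced, so its effect on the starting levels was not measured.

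The deposited intensities were taken to log2, and every level below is a log2 intensity while every change is a difference of log2 levels at 1 h minus 0 h. The 4 arrays had median levels from 6.87 to 6.89. Across genes the 2 arrays at 0 h correlated at 0.992, with 116 genes over 2-fold apart, and the 2 at 1 h at 0.99, with 145 genes over 2-fold apart. Outside these, the MGE WT group at 0 h stood apart, with r = 0.951 and 1507 genes over 2-fold apart, against 0.965 to 0.992 and 116 to 980 genes in the other 11 groups. Excitatory neuron markers were high in all 4 CTX WT arrays (12 markers measured, mean level 11.21 to 11.37, all 12 above the array median). Astrocyte markers averaged 9.43 to 9.83, interneuron markers 8.75 to 9.29, microglia markers 6.53 to 6.95 and vascular markers 6.95 to 7.93. No member of the 8 marker lists was called. Over all genes tested, 53.9% had changes below 0. The 7 microglia markers all had changes above 0, from 0.11 to 0.37, with list means of 6.53 and 6.59 at 0 h and 6.95 and 6.66 at 1 h, and only 1 of the 7 lay above the array median in all 4 arrays. The part of this in the results was not tested. In such bulk RNA, fewer cells of a type and less RNA per cell cannot be told apart.

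After 1 h a small set of genes had risen, several of them very strongly, and another set had fallen by smaller folds. Of the 12378 genes, 77 were called higher (0.622% of genes tested) and 30 lower (0.242%) by limma at a Benjamini-Hochberg adjusted p under 0.05. An unadjusted p under 0.05 was found for 657, close to the share of 0.05 that would pass if no gene changed. This count rests on the spread pooled over the 12 groups, and it does not show that the other genes did not change. Of the genes that rose, 60 rose at least 2-fold, 35 at least 4-fold, 19 at least 8-fold, 12 at least 16-fold and 8 at least 32-fold, with a median change of 1.80. Of the genes that fell, 20 fell at least 2-fold and 2 at least 4-fold, with a median change of -1.15. The median over all genes was -0.01. Both 1 h arrays lay above both 0 h arrays for all 77 genes that rose, an order that 15.6% of all genes showed, and below them for all 30 genes that fell, an order that 19.8% showed. The calls came from the same arrays, so this order is no separate support for them. At 0 h, 19 of the 77 lay below the array median in both arrays, against 0 of the 30, so folds of these 19 are approximate, because detection above background was not tested.

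The number of calls rested on the shared spread of 2 arrays a group. Arrays are given by their repeat number and time, and belong to CTX WT unless another culture is named. The number was 38 without repeat 1 at 1 h, 50 without repeat 1 at 0 h and 38 without repeat 2 at 0 h, and 32 of the 107 genes (30 higher, 2 lower) were called in all 4 fits that left out 1 array. The split between directions also moved with the processing, to 211 higher and 191 lower with array weights and 318 higher and 296 lower with every probe set tested together. In the 77 genes that rose, the 1 h level was higher in repeat 1 than in repeat 2 for 61 genes, with a median gap of 0.26. Over all genes this held for 47.5%, with a median gap of -0.01. At 0 h repeat 1 was already higher for 55 of the 77, with a median gap of 0.07, against 55% of all genes.

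**Figure D1:**
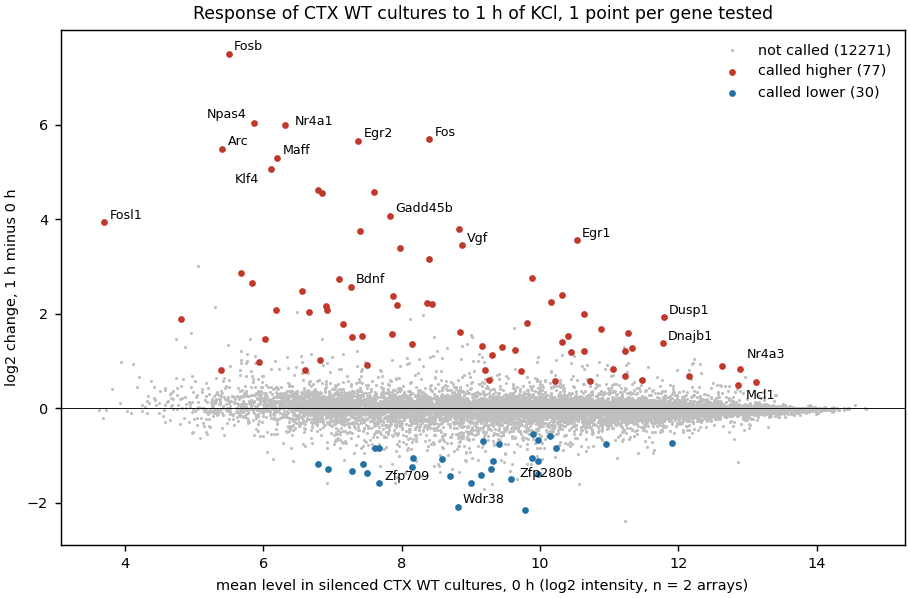
Change at 1 h against 0 h in CTX WT cultures (log2, y axis) plotted against the mean level at 0 h (log2 intensity, x axis) for the 12378 genes tested, 1 point a gene. Red points are the 77 genes called higher and blue points the 30 called lower; the red points reach 7.50 and the blue points -2.16, and most grey points lie close to 0.

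The gene with the largest rise, Fosb, belongs to the AP-1 family. AP-1 is a dimer of a Fos and a Jun protein that binds promoters and enhancers. Of 9 Fos and Jun genes tested, 4 rose, 0 fell and the median change was 0.75. Over all genes 0.622% rose, 0.242% fell and 53.9% had changes below 0. Counts from every gene list below are to be read beside these shares. Fosb stood at 5.44 and 5.56 in the 2 arrays at 0 h and at 13.06 and 12.95 at 1 h. This was the largest rise of all genes (7.50 ± 0.43, n = 2 arrays per group, 181-fold, adjusted p = 1.37e-07). Every ± is an SE based on the spread pooled over the 12 groups of the series, not on the 4 CTX WT arrays alone. Fos went from 8.49 and 8.31 to 14.19 and 13.99 (5.69 ± 0.36, adjusted p = 2.4e-07). In both genes the gap between times was far wider than the gap between arrays of a time. Junb moved from 7.25 and 6.45 to 11.49 and 11.30 (4.55 ± 0.35), and Fosl1 from 3.52 and 3.88 to 8.25 and 7.02 (3.93 ± 0.64, adjusted p = 0.00544). Another Fosl1 probe set rose less, from 5.75 and 5.60 to 7.30 and 6.59 (1.27), so the size of the Fosl1 rise differed between probe sets. Fosl1 was called in only 1 of the 4 fits that left out an array, the one without repeat 2 at 1 h (adjusted p = 0.131 without repeat 1 at 1 h, 0.0728 and 0.0578 without repeats 1 and 2 at 0 h). Jun, the classical partner of Fos, was already at 12.55 and 12.46 at 0 h and reached 13.05 and 13.03 without passing the test (0.54 ± 0.29, adjusted p = 1). Fosl2 (0.75, adjusted p = 0.219) and Jund (0.29, adjusted p = 0.604) did not pass either.

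Egr genes encode zinc finger factors that bind GC-rich promoter sites, and Nab proteins are their corepressors. All 4 Egr genes rose, and neither Nab1 (0.18) nor Nab2 (0.07) passed. Egr2 had levels of 7.21 and 7.54 at 0 h and 13.16 and 12.91 at 1 h (5.66 ± 0.27, 50.6-fold, adjusted p = 1.33e-08). Egr1 started higher, at 10.57 and 10.49, and reached 14.25 and 13.92 (3.56 ± 0.21, adjusted p = 1.83e-07). Thus both genes had 1 h arrays far above their 0 h arrays. Egr4 rose from 6.45 and 6.67 to 9.34 and 8.74 (2.48 ± 0.31), and Egr3 from 9.79 and 10.52 to 12.67 and 12.13 (2.24 ± 0.40, adjusted p = 0.0114). A dimmer Egr3 probe set had a change of 0.17. Egr3 did not pass without repeat 1 at 1 h (adjusted p = 0.237) or without repeat 1 at 0 h (adjusted p = 0.202).

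The Nr4a genes encode orphan nuclear receptors that act without a known ligand. Nr4a1 was at 6.33 and 6.31 at 0 h and at 12.46 and 12.15 at 1 h, a 63.2-fold rise (5.98 ± 0.23, adjusted p = 1.49e-09). Nr4a3 was already near the top of the scale, at 12.96 and 12.82, and moved to 13.88 and 13.58 (0.84 ± 0.13, adjusted p = 0.00323). A dimmer Nr4a3 probe set rose far more, from 3.63 and 3.59 to 6.86 and 6.15 (2.90), so the size of the Nr4a3 response differed between its probe sets. Nr4a3 did not pass without repeat 1 at 1 h (adjusted p = 0.0846) or without repeat 2 at 0 h (adjusted p = 0.0685). Nr4a2 did not pass on its brightest probe set (0.88 ± 0.47, adjusted p = 1), while 3 of its other probe sets had changes of 1.88, 1.95 and 2.06 and the dimmest had 0.26.

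Npas4, a basic helix-loop-helix PAS factor induced by calcium entry, rose from 5.80 and 5.94 to 12.03 and 11.77 (6.03 ± 0.25, 65.4-fold, adjusted p = 2.96e-09). Of 13 tested bHLH-PAS factors and partners Npas4 alone was called, where 0.622% of all genes rose. Changes below 0 were found in 10 of the 13, against 53.9% of all genes, and the median change was -0.08. The next largest value was that of Ahr (-0.74, adjusted p = 0.759).

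In a wider list of rapidly induced regulators, 15 of 36 tested genes rose, 0 fell and the median change was 0.96. Maff, a small Maf factor that lacks an activation domain, went from 6.41 and 5.99 to 11.82 and 11.17 (5.29 ± 0.32). Klf4, a Krüppel-like zinc finger factor, went from 6.32 and 5.91 to 11.50 and 10.87 (5.07 ± 0.62, adjusted p = 0.000465). Ier2, a nuclear protein of the immediate early class, went from 6.89 and 6.70 to 11.53 and 11.32 (4.62 ± 0.30). Each of these started below the array median and ended well above it. Btg2, an antiproliferative protein that promotes mRNA deadenylation, reached 12.26 and 12.07 from 7.83 and 7.37 (4.57 ± 0.34). Gadd45b and Gadd45g, stress sensors linked to MAP kinase signalling and DNA demethylation, rose by 4.07 ± 0.40 and 3.16 ± 0.31. Ccn1, a secreted matricellular protein also known as Cyr61, rose from 9.28 and 8.38 to 12.57 and 12.66 (3.79 ± 0.41). All 7 of these genes passed in each fit that left out 1 array.

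The remaining called members of that list moved less. Tiparp, a mono-ADP-ribosyltransferase that represses the aryl hydrocarbon receptor, rose by 2.40 ± 0.28 and Nfil3, a bZIP repressor, by 1.68 ± 0.15. Both were called in every fit that left out 1 array. Atf3 (2.16 ± 0.43), Irf1 (1.78 ± 0.35), Csrnp1 (1.54 ± 0.31) and Cebpb (1.51 ± 0.25), also transcription factors, passed with all arrays. So did Mcl1, an anti-apoptotic Bcl-2 relative that changed least (0.50 ± 0.09, adjusted p = 0.0125). Atf3 and Cebpb passed in 0 of the 4 fits that left out an array. Irf1, Csrnp1 and Mcl1 passed only without repeat 2 at 1 h.

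**Figure D2:**
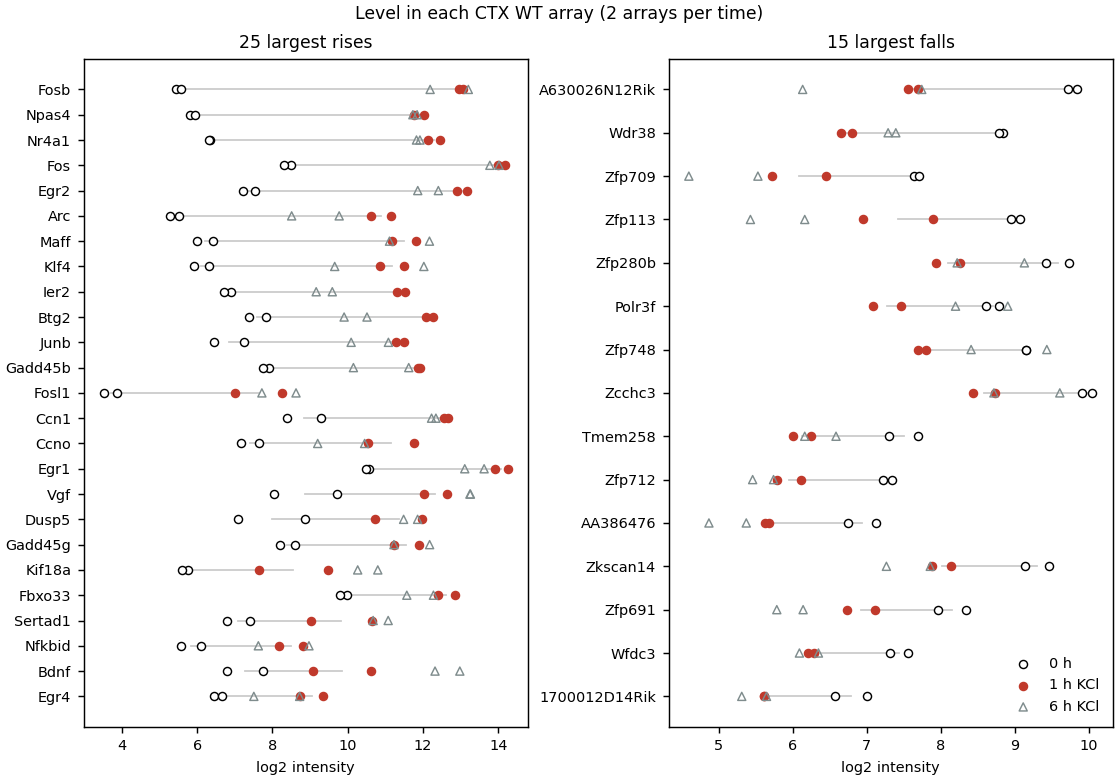
Level in each CTX WT array (log2 intensity, x axis) of the 25 genes with the largest called rise (left) and the 15 with the largest called fall (right), 1 row a gene. Open circles are the 2 arrays at 0 h, red circles the 2 at 1 h and triangles the 2 at 6 h. Grey lines join the 0 h and 1 h means. Rows were drawn only where the open and red circles do not overlap.

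Promoter sequence was examined because CREB, SRF and Egr proteins bind known DNA motifs. RefSeq promoters (GRCm38.p6, 250 bases before to 50 after a start site) were found by symbol for 60 of the 77 genes that rose, 25 of the 30 that fell and 10016 of the 12378 tested. Searched on both strands were the cAMP response element TGACGTCA, its shorter core TGACG, which every full element contains, the AP-1 site TGACTCA or TGAGTCA, the CArG box of SRF, and the Egr site GCGGGGGCG or GCGTGGGCG. The promoters shown belong to 7 genes that rose, chosen after the matches were known to show where these lie. Where a gene has several start sites, the promoter with the most matches is printed. Capitals mark matches to any of these motifs, a CGTCA being the core on the other strand. The coordinates are Fos at chr12:85473640-85473939 (plus strand), Nr4a1 at chr15:101266596-101266895 (plus strand), Npas4 at chr19:4989922-4990221 (minus strand), Egr2 at chr10:67537619-67537918 (plus strand), Dusp1 at chr17:26508423-26508722 (minus strand), Btg2 at chr1:134079106-134079405 (minus strand) and Ppp1r15a at chr7:45526219-45526518 (minus strand).
Fos: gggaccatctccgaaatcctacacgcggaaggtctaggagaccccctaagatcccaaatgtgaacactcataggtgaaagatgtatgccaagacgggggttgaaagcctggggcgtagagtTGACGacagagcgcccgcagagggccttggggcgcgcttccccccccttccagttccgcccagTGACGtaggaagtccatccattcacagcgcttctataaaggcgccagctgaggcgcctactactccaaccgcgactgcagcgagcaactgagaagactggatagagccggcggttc
Nr4a1: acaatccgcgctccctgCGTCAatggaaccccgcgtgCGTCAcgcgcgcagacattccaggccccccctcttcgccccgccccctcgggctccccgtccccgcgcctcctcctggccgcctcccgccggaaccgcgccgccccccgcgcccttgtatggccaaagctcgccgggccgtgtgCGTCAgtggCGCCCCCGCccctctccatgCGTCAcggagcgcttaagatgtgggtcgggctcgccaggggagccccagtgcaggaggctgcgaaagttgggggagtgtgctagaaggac
Npas4: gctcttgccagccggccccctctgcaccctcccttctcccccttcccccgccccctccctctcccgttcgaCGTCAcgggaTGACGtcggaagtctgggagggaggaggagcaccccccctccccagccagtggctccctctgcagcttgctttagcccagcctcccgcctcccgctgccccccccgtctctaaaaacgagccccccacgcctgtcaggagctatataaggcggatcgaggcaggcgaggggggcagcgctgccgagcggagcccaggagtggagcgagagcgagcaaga
Egr2: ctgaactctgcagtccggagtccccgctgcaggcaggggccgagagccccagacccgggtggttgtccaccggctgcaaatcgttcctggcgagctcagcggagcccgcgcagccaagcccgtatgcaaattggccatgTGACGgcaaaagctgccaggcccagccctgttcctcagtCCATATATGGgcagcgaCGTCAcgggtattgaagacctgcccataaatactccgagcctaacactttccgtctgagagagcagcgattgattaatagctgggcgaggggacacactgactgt
Dusp1: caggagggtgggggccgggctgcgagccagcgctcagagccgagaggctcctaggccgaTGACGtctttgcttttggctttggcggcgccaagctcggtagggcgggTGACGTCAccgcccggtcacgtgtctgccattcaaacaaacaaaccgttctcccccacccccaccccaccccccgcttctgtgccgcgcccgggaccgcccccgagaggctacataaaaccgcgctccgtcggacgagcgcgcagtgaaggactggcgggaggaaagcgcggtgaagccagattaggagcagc
Btg2: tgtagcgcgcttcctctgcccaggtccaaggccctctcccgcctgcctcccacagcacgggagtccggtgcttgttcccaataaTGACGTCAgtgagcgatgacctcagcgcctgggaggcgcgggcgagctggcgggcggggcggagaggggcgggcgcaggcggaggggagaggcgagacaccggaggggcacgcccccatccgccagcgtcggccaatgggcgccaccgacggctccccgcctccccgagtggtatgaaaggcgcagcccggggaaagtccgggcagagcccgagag
Ppp1r15a: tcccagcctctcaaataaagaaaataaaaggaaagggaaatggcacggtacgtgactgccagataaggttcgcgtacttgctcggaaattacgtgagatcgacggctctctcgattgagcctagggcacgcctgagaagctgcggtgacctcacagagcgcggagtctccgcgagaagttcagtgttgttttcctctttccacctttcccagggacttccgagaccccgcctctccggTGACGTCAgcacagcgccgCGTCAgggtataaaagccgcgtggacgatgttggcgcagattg

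The full element lay in the promoters of Dusp1, Btg2 and Ppp1r15a, and the shorter core was present 2 times in Fos, 4 times in Nr4a1, 2 times in Npas4 and 2 times in Egr2. Egr2 also held a CArG box, and Nr4a1 an Egr site. Over all genes that rose, the full element was found in 9 of 60 (15%), namely Btg2, Ccnl1, Dusp1, Kif18a, Maff, Myl6, Nfkbid, Ppp1r15a and Suv39h2. It was found in 0 of 25 genes that fell, in 3.64% of all genes tested and in 1.79% of the 32851 promoters. The core was found in 39 of 60 (65%), in 4 of 25 (16%), in 35.8% of genes tested and in 20.8% of promoters. CArG boxes were in 4 of 60 (6.67%), 1 of 25 (4%), 1.58% of genes and 1.63% of promoters, and Egr sites in 8 of 60 (13.3%), 2 of 25 (8%), 8.02% and 3.47%. AP-1 sites were in 3 of 60 (5%), 0 of 25, 4.24% and 5.2%. A gene counted if any of its listed promoters held the motif, whereas the last share is per promoter, and base composition was not matched. These matches describe letters within the windows only.

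Feedback regulators that damp the activating signal were among the genes that rose. Dusp proteins remove phosphate from MAP kinases, and 3 of 10 tested rose, against 0.622% of all genes, with a median change of 0.55. Dusp1, a nuclear phosphatase, went from 11.81 and 11.77 to 13.72 and 13.72 with very little spread (1.93 ± 0.13, adjusted p = 5.24e-07). Dusp5, which acts on ERK in the nucleus, had 0 h arrays far apart, at 8.87 and 7.10, and 1 h arrays at 11.99 and 10.74 (3.38 ± 0.59, adjusted p = 0.00943). Dusp6, which acts on ERK in the cytoplasm, rose by 1.99 ± 0.34. Neither Dusp5 nor Dusp6 passed without repeat 1 at 1 h (adjusted p = 0.228 and 0.152) or without repeat 2 at 0 h (adjusted p = 0.17 and 0.116), whereas Dusp1 passed in all 4 such fits. Of 12 Ras-ERK inhibitors 0 passed, with a median change of 0.03, and the largest values were those of Errfi1 (1.04, adjusted p = 0.446) and Spry4 (0.89, adjusted p = 0.493). Erf, an ETS repressor that ERK controls, rose by 1.80 ± 0.27 and was called only in the fits without repeat 2 at 1 h or without repeat 2 at 0 h.

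In the cAMP and CREB pathway 2 of 19 tested genes rose, against 0.622% of all genes, with a list median of -0.004. Crem, which also encodes the inducible repressor ICER, went from 8.62 and 8.26 to 11.16 and 10.11 (2.20 ± 0.28, adjusted p = 0.000732). Sik1, a kinase that keeps CREB coactivators out of the nucleus, went from 8.88 and 8.82 to 10.94 and 9.98 (1.61 ± 0.25, adjusted p = 0.00434). Crem passed in every fit that left out 1 array, and Sik1 did not pass without repeat 1 at 1 h (adjusted p = 0.0594) or without repeat 2 at 0 h (adjusted p = 0.0657). Of 17 clock genes 1 rose, Per1, a repressor of the circadian loop (1.32 ± 0.23, adjusted p = 0.0107), and the list median was 0.08. Per1 passed only in the fit without repeat 2 at 1 h.

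Of 16 genes of mRNA decay and NF-kB feedback 1 rose, with a median of 0.02. It was Nfkbiz, an atypical IkB protein of the nucleus (6.69 and 6.65 at 0 h, 9.11 and 8.31 at 1 h, 2.04 ± 0.32), which did not pass without repeat 1 at 1 h (adjusted p = 0.106) or without repeat 2 at 0 h (adjusted p = 0.0644). Nfkbid, another atypical IkB protein outside the list, rose by 2.65 ± 0.39 and failed without the same arrays (adjusted p = 0.0666 and 0.0657).

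RGK proteins are small GTPases that inhibit voltage-gated calcium channels, the entry route of the signal. Of 12 tested RGK, Rnd and other Ras-like GTPases 2 rose, both RGK members, and the list median was -0.01. Rem2 had levels of 7.84 and 8.01 at 0 h and 10.24 and 9.98 at 1 h (2.18 ± 0.29, adjusted p = 0.00108). Gem was near the bottom of the scale, at 4.49 and 5.13, and reached 7.24 and 6.15 (1.88 ± 0.37, adjusted p = 0.0226). Rem2 passed in all 4 fits that left out an array and Gem only without repeat 2 at 1 h. Rasl11b, named after its values were seen, was lower without passing (-1.14 ± 0.25, adjusted p = 0.0515). Rgs2, which shortens signalling of G protein coupled receptors, was the 1 gene of 15 regulators of G protein signalling that rose (1.22 ± 0.18), with a list median of -0.01.

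Arc, Bdnf and Vgf were the called members of the lists of synaptic and secreted effectors. Of 15 synaptic effectors 12 had changes above 0, with a median of 0.25, while 53.9% of all genes had changes below 0. Among the 15, 1 was called, where 0.622% of all genes were called higher. That gene was Arc, a protein of dendrites and spines that takes part in AMPA receptor removal, which went from 5.28 and 5.53 to 11.16 and 10.62 (5.49 ± 0.34, 44.8-fold, adjusted p = 2.37e-07). Ptgs2, the inducible cyclooxygenase, named after its values were seen, had the next largest change without passing (3.01 ± 0.68, adjusted p = 0.057), with 0 h arrays at 4.27 and 5.85 and 1 h arrays at 8.61 and 7.52. Homer1, also named after its values were seen, was at -0.18 (adjusted p = 1) on its brightest probe set, while 2 of its other probe sets had changes of 0.82 and 1.83 and the rest lay from -0.21 to 0.01. Which Homer1 transcript each probe set reads was not determined.

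Of 15 growth factors and cytokines 1 was called, Bdnf, the neurotrophin that supports synapse growth and survival. Its 0 h levels were 7.74 and 6.80 and its 1 h levels 10.62 and 9.07 (2.58 ± 0.45, adjusted p = 0.0106), and the list median was 0.04. Bdnf was not called without repeat 1 at 1 h (adjusted p = 0.228) or without repeat 2 at 0 h (adjusted p = 0.194). Of 18 neuropeptides and secretory granule proteins 16 had changes above 0 and 1 was called, Vgf, a granule protein cut into bioactive peptides. Over all genes, 53.9% had changes below 0 and 0.622% were called higher. Vgf rose from 9.72 and 8.03 to 12.63 and 12.02 (3.45 ± 0.43, adjusted p = 0.000517) and passed in every fit that left out an array, with a list median of 0.27. Pcsk1, the prohormone convertase of the same granules, named after its values were seen, did not pass (2.03 ± 0.46, adjusted p = 0.0582). Of 21 genes known as late activity genes, Bdnf alone was called, and the list median was 0.09.

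Stress response genes rose in part. The integrated stress response couples phosphorylation of the initiation factor eIF2 to a changed set of proteins. Of 17 of its genes 3 rose, against 0.622% of all genes, 0 fell and the median was 0.28. Ppp1r15a, the regulatory subunit that directs dephosphorylation of eIF2, went from 8.50 and 8.24 to 10.61 and 10.58 (2.23 ± 0.31, adjusted p = 0.00179) and passed in each fit that left out an array. Herpud1, a component of degradation at the endoplasmic reticulum, rose by 1.22 ± 0.24 and passed only without repeat 1 at 1 h. Atf4, the effector transcription factor, rose by 0.55 ± 0.12 (adjusted p = 0.0467) and passed only without repeat 2 at 0 h. A dimmer Atf4 probe set had overlapping arrays, at 10.94 and 11.66 at 0 h and 11.75 and 11.54 at 1 h (0.35), and the dimmest was at -0.02. Ddit3, a target of Atf4 named after its values were seen, changed by 0.28 (adjusted p = 1). Of 21 heat shock chaperones 1 rose, Dnajb1, the partner of Hsp70, from 11.80 and 11.75 to 13.22 and 13.08 (1.37 ± 0.14, adjusted p = 9.19e-05), and the list median was 0.02. A dimmer Dnajb1 probe set rose by 2.61. The levels of Hspa1a (0.33) and Hspa1b (0.61), named after their values were seen, did not pass.

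Genes that set the excitability of the cell had not passed the test after 1 h. None of 19 potassium channel genes was called (median -0.06), and the largest changes were those of Kcnf1 (0.51) and Kcna4 (-0.46). None of 19 calcium and sodium channel genes was called (median 0.01), with Cacna1d at 0.23 and Cacna1h at 0.21. Among 18 glutamate receptor genes (median -0.10) Grm7 was at -0.36 and Grik3 at -0.24, and among 10 GABA receptor genes (median -0.07) Gabrb1 was at -0.31 and Gabrb2 at -0.11. All of these had adjusted p = 1. None of 22 chromatin regulators passed (median -0.06, Arid5a 1.08, Tet1 -0.32). None of 10 Id and Hes repressors passed (median -0.06, Hey2 -0.95, Hes1 -0.66), nor any of 15 cytoskeletal SRF targets (median -0.02, Flna 0.71, Acta2 -0.49). The 10 control genes had a median of 0.01, with Tbp at 0.39 and Gusb at 0.12. Missing the threshold does not show that these genes did not change.

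Other genes with large rises had roles outside these lists. Ccno, an atypical cyclin, went from 7.64 and 7.16 to 11.77 and 10.53 (3.75 ± 0.45, adjusted p = 0.000345), and Fbxo33, a substrate receptor of a ubiquitin ligase, from 9.97 and 9.79 to 12.86 and 12.40 (2.75 ± 0.27). Both passed in every fit that left out 1 array. Kif18a, a mitotic kinesin, had 1 h arrays far apart, at 9.47 and 7.64 against 5.76 and 5.60 at 0 h (2.87 ± 0.55, adjusted p = 0.0203). Sertad1, a regulator of transcription and of Cdk4, rose by 2.74 ± 0.50, Spty2d1, a histone chaperone, by 2.38 ± 0.38 and Itprip, a partner of the IP3 receptor, by 2.07 ± 0.38. These 4 genes were called only without repeat 2 at 1 h among the fits that left out an array. Slc10a1, a bile acid transporter of liver, went from 6.19 and 6.19 to 7.86 and 8.70 (2.09 ± 0.34) and passed only without repeat 1 at 1 h.

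Smaller rises were seen in genes of varied function. Ccnl1, a cyclin tied to splicing, rose by 1.59 ± 0.16 (adjusted p = 4.41e-05), Tob2, a relative of Btg2, by 1.28 ± 0.24, Cpeb3, a regulator of translation, by 0.58 ± 0.12 and Cpsf4, a polyadenylation factor, by 0.59 ± 0.13. Ccnl1 passed in all 4 fits that left out an array, and the other three in 0 of 4. Other Cpeb3 probe sets had changes of 0.18 and -0.09. Nop53, a nucleolar protein of ribosome assembly, rose by 0.90 ± 0.15 on its brightest probe set and by 3.67 on another, and it did not pass without repeat 1 at 1 h (adjusted p = 0.127) or without repeat 2 at 0 h (adjusted p = 0.133). Suv39h2, a histone methyltransferase, rose by 1.12 ± 0.23 and passed only without repeat 2 at 1 h. Rassf1 (1.39 ± 0.19), a Ras association protein, and Gpr19 (1.19 ± 0.15), an orphan receptor, passed in every fit that left out an array. Pnrc1, a nuclear receptor coactivator, rose by 1.54 ± 0.27 and Usp36, a deubiquitinase of the nucleolus, by 1.23 ± 0.24. Myl6, a myosin light chain, rose by 1.37 ± 0.21 and Magel2, a member of the MAGE family, by 1.58 ± 0.32. Rises of under 1 included Gmeb2 (0.59 ± 0.09), Emd (0.69 ± 0.14) and Rpl22l1 (0.68 ± 0.13). For 58 called genes other probe sets existed, and of the 70 of these that passed the filter 63 changed in the same direction as the one used and 7 in the opposite direction, by at most 0.37.

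Of the 30 genes that fell, 9 carried a Zfp symbol. Zfp symbols mark a large family of mostly DNA-binding proteins, many of which carry a KRAB domain and repress transcription. Of 309 tested Zfp genes 9 fell (2.91%, against 0.242% of all genes) and 0 rose. The family median was -0.24, against -0.01 for all genes, and 250 of 309 (80.9%) lay below 0, against 53.9% of all genes. By repeat number the family median was -0.27 and -0.23. It lay between -0.20 and -0.29 under every normalization and fit tried, while the number of called members was 0 without repeat 1 at 1 h, 2 without repeat 1 at 0 h, 1 without repeat 2 at 0 h, 2 in the 12 CTX arrays alone and 57 with array weights.

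Zfp709 went from 7.64 and 7.71 to 5.72 and 6.45 (-1.59 ± 0.29, adjusted p = 0.0121). Zfp113 went from 8.94 and 9.07 to 6.95 and 7.89 (-1.59 ± 0.32, adjusted p = 0.0278). In both genes the 1 h arrays lay further apart than the 0 h arrays without reaching them. Zfp280b went from 9.43 and 9.73 to 7.93 and 8.25 (-1.49 ± 0.22, adjusted p = 0.003) and Zfp748 from 9.15 and 9.15 to 7.69 and 7.79 (-1.41 ± 0.26). Zfp712 fell by 1.33 ± 0.21, Zfp691 by 1.23 ± 0.22, Zfp689 by 1.12 ± 0.22, Zfp108 by 0.83 ± 0.16 and Zfp287 by 0.75 ± 0.13. None of the 9 passed in all 4 fits that left out an array, Zfp748 and Zfp108 in 0 of 4. Zkscan14, a zinc finger gene with KRAB and SCAN domains under another symbol, fell by 1.28 ± 0.24. Probe sets of the same gene did not always follow, with another at 0.19 for Zfp287 and at -0.07 for Zfp689, and others at -0.23 and -0.14 for Zkscan14.

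Wdr38, a WD repeat gene, had the largest fall of a gene with an informative name, from 8.84 and 8.79 to 6.65 and 6.81 (-2.08 ± 0.17, 4.24-fold lower, adjusted p = 5.1e-06). Kbtbd6, an adaptor of a Cul3 ubiquitin ligase, fell from 8.18 and 8.15 to 6.98 and 7.27 (-1.04 ± 0.13, adjusted p = 0.000632). These were the 2 genes that fell in every fit leaving out 1 array. Polr3f, a subunit of RNA polymerase III, fell by 1.43 ± 0.26 on its brightest probe set, while 3 others had changes of -0.31, -0.01 and 0.001. Falls were also called for Tmem258 (-1.37 ± 0.20), a subunit of the oligosaccharyltransferase, Zcchc3 (-1.39 ± 0.27) and Wfdc3 (-1.19 ± 0.22). Among zinc transporters, lower levels were called on the brightest probe sets of Slc30a1 of the plasma membrane (-0.74 ± 0.16, adjusted p = 0.0397) and Slc30a7 of the Golgi (-0.67 ± 0.15, adjusted p = 0.0489). The other probe set of each went the opposite way (0.35 and 0.20), and Slc30a1 passed in 1 and Slc30a7 in 0 of the 4 fits that left out an array. Axin2, a feedback inhibitor and target of Wnt signalling, fell by 0.84 ± 0.18, Fadd, an adaptor of death receptors, by 0.84 ± 0.18 and Dyrk3, a protein kinase, by 1.04 ± 0.22. Of the 30 genes that fell 6 had clone or provisional names and were counted only, as were 2 of the 77 that rose.

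The same comparison in CTX KO cultures took its means from other arrays. The spread of each gene was shared across all 24 arrays, so calls in CTX WT and CTX KO were not independent. There 83 genes rose (0.671%) and 53 fell (0.428%). Of the 77 genes that rose in CTX WT cultures 69 also rose in CTX KO (89.6%, and 83.1% of the KO's 83), and of the 30 that fell 28 also fell (93.3%, and 52.8% of the KO's 53). The estimate had the same sign in CTX KO for all 107, with medians of 1.80 and -1.12 in CTX KO. Leaving out 1 CTX KO array left between 38 and 56 of the 77 and between 8 and 16 of the 30 called, with the lowest of 38 without CTX KO 1 h repeat 1 and of 8 without CTX KO 0 h repeat 1.

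Npas4 itself was the 1 gene whose response differed by a test of the difference between genotypes (0.00808% of genes). In CTX KO its levels were 5.82 and 5.78 at 0 h and 6.80 and 6.85 at 1 h (1.02 ± 0.25, adjusted p = 0.0806), and KO minus WT was -5.01 ± 0.35 (adjusted p = 9.33e-06). The sources used here do not say if this probe set reads the deleted part, so the value checks the labels without showing what protein remained. At an unadjusted p under 0.05, 15 of the 12378 genes differed, 3 of them among the 107. That share lies far below 0.05, so the test was conservative here and may have missed other differences. Gem stood at 4.16 and 3.92 in CTX KO at 0 h and at 7.76 and 6.70 at 1 h (3.19), the widest gap from CTX WT after Npas4 among the genes plotted, and its difference did not pass (1.31 ± 0.52, adjusted p = 1). Of the genes that rose in CTX WT cultures, those not called in CTX KO were Npas4, Atf3 (1.47, adjusted p = 0.207), Herpud1 (0.85, adjusted p = 0.179), H3c7, Wdyhv1, Il18bp, Fam181a and Cpsf4. Polr3f was among those that fell in CTX WT and were not called in CTX KO (-0.95, adjusted p = 0.137). The Zfp genes had a median of -0.25 in CTX KO against -0.02 for all genes, with 20 lower and 1 higher.

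In MGE WT cultures, whose lineage gives rise to inhibitory interneurons, the means again came from other arrays while the spread was shared. In this comparison 48 genes rose (0.388%) and 23 fell (0.186%). Of the 77 genes that rose in CTX WT cultures 32 also rose there (41.6%, and 66.7% of the 48), and of the 30 that fell 11 also fell (36.7%, and 47.8% of the 23). The estimate had the same sign for 73 of 77 and 29 of 30, with medians of 0.90 and -0.71. These overlaps moved with the spread of the MGE arrays. Leaving out MGE WT 1 h repeat 1 gave 19 and 4 shared genes, MGE WT 1 h repeat 2 gave 14 and 3, MGE WT 0 h repeat 2 gave 21 and 4, and MGE WT 0 h repeat 1 gave 40 and 13 among 1813 calls.

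Fosb (6.51), Npas4 (5.85), Fos (6.24), Egr2 (4.93) and Nr4a1 (7.25) rose strongly in MGE WT as well. The difference between cell types passed for 2 genes (0.0162%), both larger in MGE WT. At an unadjusted p under 0.05, 232 of the 12378 genes differed, again a share below 0.05, and 60 of these were among the 107. The 107 were chosen by their CTX WT change, which enters this difference, so the 60 are no separate support for a difference. Nr4a3 went from 10.10 and 10.05 to 13.42 and 13.48 in MGE WT (3.37), against 0.84 in CTX WT, a difference of 2.53 ± 0.18 (adjusted p = 9.74e-06). With the mean of the probe sets of each gene that difference was 0.07 (adjusted p = 0.998), and with the arrays of the groups compared alone its adjusted p was 0.165. Sstr2, a somatostatin receptor named after its values were seen, went from 7.78 and 8.51 to 10.47 and 10.35 in MGE WT (2.27) and from 8.57 and 8.80 to 9.24 and 8.93 in CTX WT (0.40), a difference of 1.87 ± 0.27 (adjusted p = 0.0441). It did not pass without either CTX WT 1 h array (adjusted p = 0.0813 and 0.141), either CTX WT 0 h array (0.13 and 0.295) or either MGE WT 1 h array (0.186 and 0.129).

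For 64 of the 77 genes that rose the estimate was smaller in MGE WT, without a test of the whole set. In CTX KO it was smaller for 38 of the 77. The 77 were chosen by their CTX WT change, which enters these differences, so the choice itself favours smaller estimates elsewhere. The widest gaps below CTX WT did not pass. Fosl1 had a change of 0.62 in MGE WT (difference -3.31 ± 0.90, adjusted p = 0.809), Ccn1 of 0.60 (difference -3.19 ± 0.59, adjusted p = 0.162) and Klf4 of 1.93 (difference -3.14 ± 0.88, adjusted p = 0.961). The other Fosl1 probe set had changes of 1.27 in CTX WT and -0.17 in MGE WT. Bdnf had a change of 0.19 in MGE WT and Egr4 of 0.34. Egr3 had a larger change there than in CTX WT, from 5.36 and 4.95 to 9.65 and 9.48 (4.41, difference 2.17 ± 0.57, adjusted p = 0.809). Among genes that rose in CTX WT, Itprip, Sik1, Rnf113a2 and Ubald1 had estimates below 0 in MGE WT, and Zfp280b, which fell in CTX WT, had an estimate above 0 (0.31). A dimmer Sik1 probe set went the other way in MGE WT, with changes of 1.71 there and 1.85 in CTX WT. The Zfp genes had a median of -0.20 in MGE WT against -0.01 for all genes, with 8 lower and 0 higher.

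**Figure D3:**
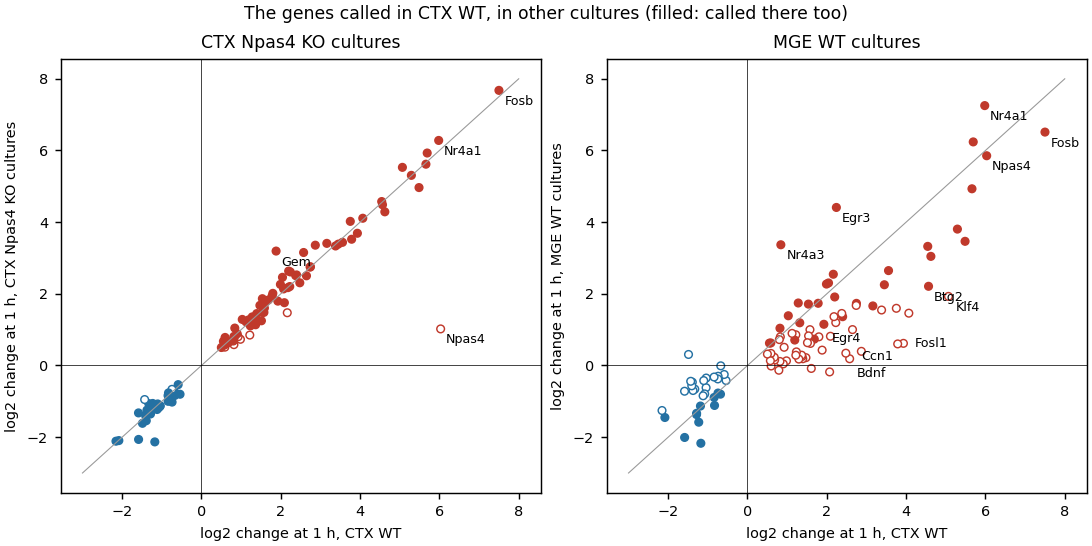
Change at 1 h (log2) of the 107 genes called in CTX WT (x axis) in CTX Npas4 KO cultures (left, y axis) and MGE WT cultures (right, y axis), 1 point a gene, red for genes that rose in CTX WT and blue for genes that fell. Filled points were also called in the culture on the y axis and the grey line marks equal change; on the left the points follow the line except Npas4 at 1.02, and on the right 64 of 77 red points lie below it.

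Levels at 6 h in CTX WT cultures are set beside those at 1 h, and the difference between these times was not tested. Arc was at 10.89 on average at 1 h and at 8.51 and 9.77 in the arrays at 6 h. Ier2 stood at 9.16 and 9.59 and Btg2 at 9.91 and 10.51 at 6 h, below both of their 1 h arrays. Dnajb1 was back at 11.57 and 12.09, near its 0 h levels.

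Other genes stayed far above their 0 h levels at 6 h. Npas4 was at 11.73 and 11.84, and Fosb at 12.19 and 13.21, with means slightly below those at 1 h. Dusp1 was at 13.46 and 13.38, below both of its 1 h arrays. Bdnf reached 12.98 and 12.32, Crem 12.79 and 12.36 and Gem 9.03 and 9.56, each above both of its 1 h arrays. Kif18a reached 10.27 and 10.80. Among genes that fell, Zfp113 was at 6.16 and 5.43 and Kbtbd6 at 5.65 and 5.84 at 6 h, below both 1 h arrays, whereas Polr3f was at 8.90 and 8.20 and Wdr38 at 7.29 and 7.39, above both.

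**Figure D4:**
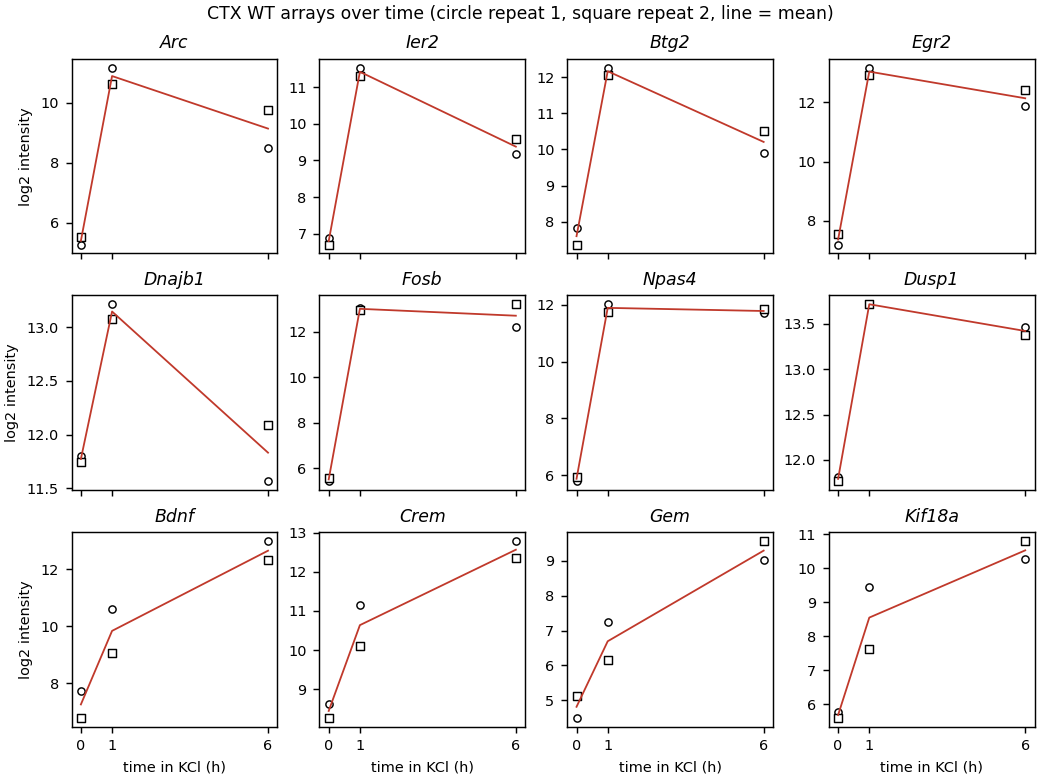
Level (log2 intensity, y axis, with its own range in each panel) at 0, 1 and 6 h of KCl (x axis) in CTX WT cultures for 12 genes chosen after their values were seen. Circles are repeat 1, squares repeat 2 and red lines join the means of the 2 arrays; Arc, Ier2, Btg2 and Dnajb1 are lower at 6 h than at 1 h, and Bdnf, Crem, Gem and Kif18a are higher.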

How the data were processed

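Amplification started from 100 ng of total RNA (NuGEN Ovation V2), followed by Affymetrix mouse expression arrays, per the labels' protocols. The authors deposited linear intensities of 6.61 to 29464 for 45101 probe sets on each array, and the submitters' processing notes name RMA with no version. Whether all arrays were normalized together is not given in the sources used here. Such a normalization makes array medians alike (115 to 121), so a shift shared by most genes is not visible.

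The deposited intensities were taken to log2 with no further scaling. Of the probe sets 34958 had 1 gene symbol, 932 several and 9211 none, and 34754 matched RefSeq by Entrez ID with 0 symbols changed. For the 18194 genes, the brightest probe set on average stood for the gene. Genes under the array median in all but 1 or 0 arrays were left out, which removed 5816. With limma 3.58.1 in R 4.3.3, 12 group means were fitted to all 24 arrays (12 residual and 2.408 prior degrees of freedom). Two-sided p-values were adjusted by Benjamini-Hochberg, and calls needed an adjusted p under 0.05. An exact permutation test of 2 against 2 arrays could not go below p = 0.333. The fit was tested on simulated data.

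The genes, lists and motifs were chosen with earlier results of these data known. The text names Npas4, the 25 called genes with the largest rise and the 15 with the largest fall, every called list member, the 2 largest members of lists without a call and other called genes in group sentences. Clone and provisional names were counted only. Other genes are said to have been chosen after their values were seen. Alternatives covered the filter, normalization, probe set choice, arrays in the fit, offset, variance prior, array weights, replicate block and leaving out single arrays.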

Additional observations from a re-analysis of the deposited data

Results flagged for a closer look

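The response of Npas4 at 1 h differed between genotypes, with CTX KO minus CTX WT at -5.01 ± 0.35 (limma, adjusted p = 9.33e-06), and its call held under every alternative run. The response of Nr4a3 was larger in MGE WT than in CTX WT by 2.53 ± 0.18 (limma, adjusted p = 9.74e-06) on its brightest probe set. A dimmer Nr4a3 probe set had a change of 2.90 in CTX WT and 0.71 in MGE WT. The response of Sstr2 was larger in MGE WT by 1.87 ± 0.27 (limma, adjusted p = 0.0441), and this call was lost under 12 alternatives, among them no filter on low values (adjusted p = 0.0513).

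Probe sets with no gene symbol or with several were outside the comparisons between genes. Of 3641 tested, 327 were called in CTX WT at 1 h, 110 higher and 217 lower, with p-values adjusted over these 3641 alone. Those without a symbol were dimmer, with a median level of 7.65 against 10.11 for probe sets used for a gene. When every probe set was tested together, 6.91% of the 3054 without a symbol were called (74 higher, 137 lower), against 1.1% of those used for a gene, 2.5% of other probe sets of a gene and 1.53% of those with several symbols. In CTX KO 6.32% of the probe sets without a symbol were called, and in MGE WT 2.59%.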

How the results depend on the processing

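None of the 107 called genes changed direction under any alternative, and 26 kept their call in all. The direction was fixed in advance where 1 CTX WT array was left out, because the 1 h and 0 h arrays of these genes did not overlap. It was also fixed where only the filter, the other arrays in the fit, the variance prior or the array weights differed. In those alternatives the kept direction is no separate support. Of the 107, 105 were called with no filter, 105 after quantile normalization, 102 after cyclic loess and 94 with a trended robust prior. Of the 102 tested with the mean of probe sets 87 were called, and 47 genes were then called lower. With the 12 CTX arrays alone 58 genes were called (48 higher, 10 lower) and 66 in CTX KO. With only the arrays compared 57 were called (38 higher, 19 lower), 1 in MGE WT and 0 in the difference MGE WT minus CTX WT. With array weights 402 were called (211 higher, 191 lower), 492 in CTX KO, 16 in MGE WT and 1 in that difference, which also held 1 call with no filter, after quantile normalization and with the trended prior. Leaving out 1 array gave 38 to 93 calls in CTX WT (33 to 70 higher, 4 to 23 lower), 47 to 77 in CTX KO, 21 to 1813 in MGE WT and 1 to 551 in the difference MGE WT minus CTX WT. The highest values of the last 2 came without MGE WT 0 h repeat 1. The cause of these shifts was not tested. Values that turned sign were those of Grm7 (0.24 with the mean of probe sets), Acta2 (0.021 without CTX WT 0 h repeat 1, -0.993 without repeat 2) and Gusb (-0.021 and 0.264).

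With the replicate block 150 genes were called, 104 higher and 46 lower, and 106 of the 107 kept their call. The difference of repeat 1 minus repeat 2 was taken for each gene within each group. Across genes this difference correlated at 0.54 between CTX WT 0 h and 1 h. Between pairs of groups it correlated at 0.11 to 0.71 within CTX and at -0.23 to 0.86 within MGE. The labels do not say that a number marks a shared culture, litter or day, and the groups compared hold only 2 numbers, so whether the numbers pair the arrays is not known. Chosen after seeing the data, a test of every probe set together called 614 (318 higher, 296 lower), and a fit without either MGE WT 0 h array called 128 (92 higher, 36 lower) with all 107 kept. With 2 arrays a group the number of arrays limits the precision, and genes below the array median have approximate folds.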
